A study of Mus musculus with 2 samples.

Results

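Astrocytes at a site of brain injury raise Gfap, the intermediate filament protein of the astrocyte cytoskeleton, and near a lesion they form a border around tissue filled with phagocytes. Reactive astrocytes also change secreted inhibitors, metal-binding proteins, lipid carriers and cytoskeletal genes. Gfap is high in some uninjured tissue as well, mainly in white matter, in parts of the hippocampus and under the brain surface, so a Gfap-high position is not by itself a sign of injury. The question was which other genes accompanied high Gfap on the injured side of the brain, 3 days and 28 days after a controlled cortical impact (CCI), a model of brain trauma made by a piston impact on the cortex.

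The data were 2 coronal brain sections, each from 1 male C57Bl6 mouse with an age of 3 months in the labels, 1 taken 3 days and 1 taken 28 days after CCI with no other treatment. The paper that reported these data gives 3 months as the age at impact, so the mice differed in age when the sections were taken. No sham or uninjured section was analysed here, and every group below lies in an injured brain, so the opposite side of the same section served as the comparison. RNA was read with Visium HD, a probe-based spatial array on which a 16 µm bin can hold parts of several cells, and counted as unique molecular identifiers (UMIs). The 3-day section held 121967 bins with a median of 836 UMIs and the 28-day section 105589 bins with a median of 596 UMIs.

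The Gfap-high bins of the injured side were chosen by the share of Gfap among all UMIs in the block of 3 by 3 bins around each bin of at least 100 UMIs. A bin was taken when this share exceeded that of all but the highest 0.5% of opposite-side bins and when its block held fewer than 2 UMIs of Cd68, Lyz2 and Lgals3, 3 genes of phagocytes. This gave 384 bins at 3 days, of 39116 on the injured side, and 1787 bins at 28 days, of 49478, or 2171 of 222933 bins in all. With the midline 20 columns lower or higher the rule gave 141 or 549 bins at 3 days and 1692 or 1782 at 28 days. The highest 0.5% of the opposite side itself held 403 bins at 3 days and 270 at 28 days, to which the phagocyte filter was not applied. The threshold stood at 9213 Gfap counts per 1000000 UMIs (CPM) at 3 days and at 6117 at 28 days. The 50 bins just inside it had block levels of 9215 to 9504 CPM at 3 days and the 50 just outside 8927 to 9211 CPM. At 28 days the 50 just inside had 6117 to 6208 CPM and the 50 just outside 6045 to 6111 CPM. Over the whole injured side Gfap stood at 1292 CPM at 3 days and 1305 CPM at 28 days, with block medians of 663 and 305 CPM. Because Gfap, the 3 phagocyte genes and the side chose the bins, these values are a description, and all 4 genes were left out of every total and comparison that follows.

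Gfap passed 9213 CPM in 2.14% of injured-side bins at 3 days and the lower threshold of 6117 CPM in 11.3% at 28 days. The phagocyte filter then removed 454 of 838 such bins (54.2%) at 3 days and 3793 of 5580 (68.0%) at 28 days. The removed blocks were deeper, with a median of 6727 UMIs against 4972 in the retained blocks at 3 days and 3729 against 2372 at 28 days. The limit was thus looser as a share of UMIs at 28 days, and the part of depth in this filter was not tested. On the opposite side 71.7% of the Gfap-high bins at 3 days and 90.4% at 28 days had fewer than 2 such UMIs.

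The sections differed in where these bins lay, and on the opposite side Gfap-high bins followed a strip under the white matter and the ventral surface in both. At 3 days the injured-side Gfap-high bins formed thin strips, in 58 patches of which the largest held 52 bins, along the cortical surface, beside the midline, in the white matter under the lesion and along the ventral surface. At 28 days they formed 225 patches, the largest of 213 bins, and most filled a field of deep tissue below the lost cortex, interleaved with phagocyte-rich bins. The median distance to a phagocyte-rich patch, meaning at least 100 touching bins with 5 or more UMIs of the 3 phagocyte genes in the block, was 471 µm at 3 days and 231 µm at 28 days. Of the 384 bins at 3 days, 191 (49.7%) lay within 500 µm of the midline, against 85 of 1787 (4.76%) at 28 days. The array columns on the injured side spanned 2.08 mm at 3 days and 3.84 mm at 28 days. Less tissue far from the midline was thus captured at 3 days, and its part in these positions was not tested. Within 100 µm of a phagocyte-rich patch 2.97% of injured-side bins at 3 days and 12.7% at 28 days were Gfap-high by the rule, and beyond 1000 µm the shares were 0.22% and 0.48%. The anatomical sampling of the Gfap-high bins therefore differed between the sections, as did the Gfap threshold, at 9213 CPM and then 6117 CPM. Section, mouse, age, time, position and threshold cannot be told apart in these shares or in the comparison over time.

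**Figure D1:**
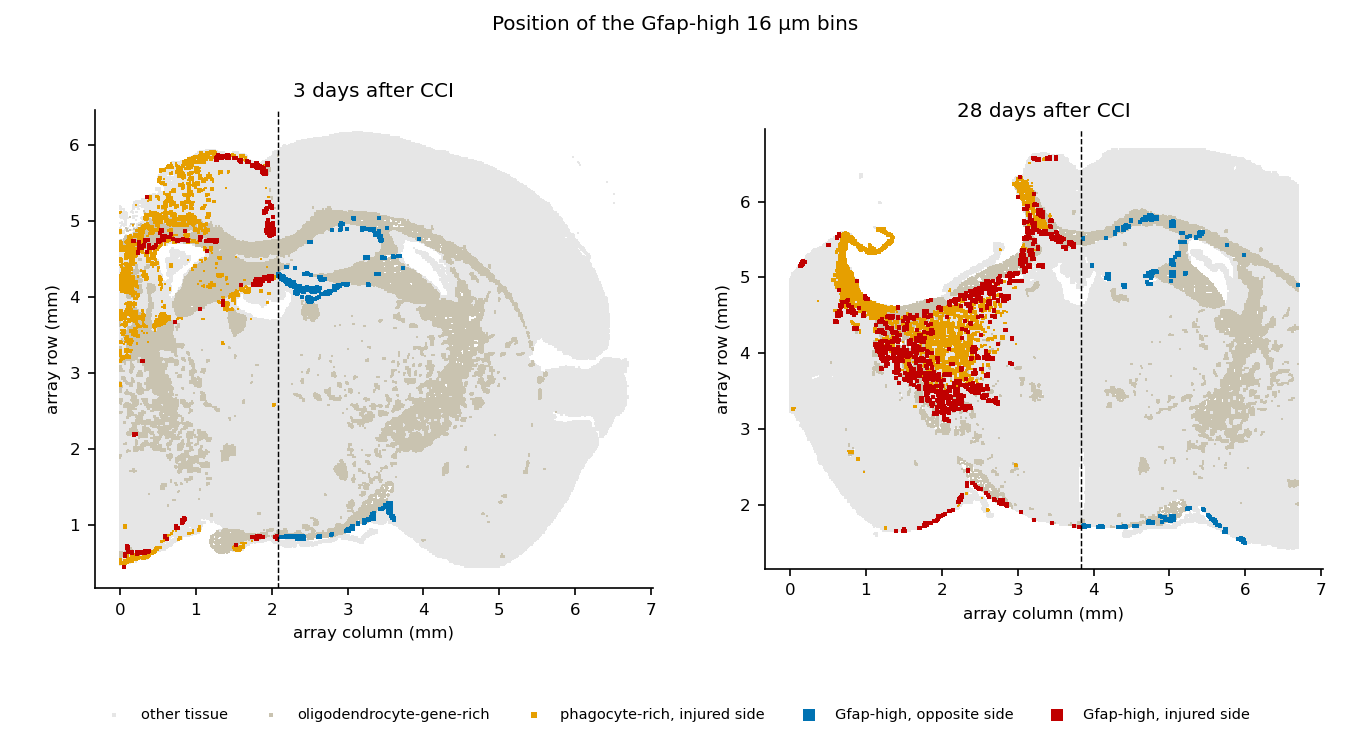
Position of bins in each section, with array column and row in mm. Red marks Gfap-high bins of the injured side (384 at 3 days, 1787 at 28 days), blue those of the opposite side (403 and 270), orange injured-side bins with 5 or more phagocyte UMIs in the block, tan bins rich in oligodendrocyte genes, grey other tissue, and the dashed line is the midline column of the rule; red and blue points are drawn larger than a bin. Red bins form strips at 3 days and a broad field at 28 days.

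The label was checked against astrocyte genes that the rule did not use. In the injured-side Gfap-high bins, 12 of 12 genes of an astrocyte identity list were above the mean of the whole opposite side at 3 days and 11 of 12 at 28 days, and 9 and 7 of them by at least 2-fold, beside 26.5% and 18% of all genes. The summed identity list reached 8543 CPM against 2320 CPM at 3 days and 7985 against 2594 CPM at 28 days. Aqp4, the water channel of astrocyte endfeet, had 1991 CPM in the 3-day bins against 160 CPM over the opposite side, and 2215 against 148 CPM at 28 days. A list of 10 neuronal genes was lower in sum, at 2022 against 8262 CPM and 2348 against 8302 CPM. The bins were thus rich in astrocyte RNA, but they were not pure. The 10 oligodendrocyte genes summed to 10267 CPM at 3 days and 15898 CPM at 28 days, against 4025 and 5260 CPM over the opposite side. The 15 genes of a phagocyte list, which holds none of the 3 filter genes, summed to 1777 CPM at 3 days and 7288 CPM at 28 days, against 397 and 353 CPM over the opposite side. At 3 days fibroblast, mural and endothelial lists summed to 1394, 1167 and 864 CPM, against 86.5, 275 and 284 CPM over the opposite side. The fibroblast sum was thus higher by 4.01 on the log2 scale, beside 1.88 for the identity list. At 28 days these 3 lists were at 268, 652 and 502 CPM, against 61.6, 308 and 284 CPM. In bulk UMI sums of this kind, more cells of a type and more RNA per cell cannot be told apart.

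With 1 section for each time there were no replicates and no test. A gene was compared when both groups together held at least 50 UMIs, and called when its ratio of CPM, with 0.5 UMIs added to each group, differed by at least 2-fold. Intervals given with log2 ratios are exact 95% binomial intervals, and these cover counting error alone. The spread within a section is shown by 5 bands of equal bin number along the array rows. Bands of 1 section are not replicates. At 3 days 0.313% of genes had all bands of the injured side above those of the opposite side and 0.313% all bands below, and at 28 days 1.93% and 0.386%.

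At 3 days the Gfap-high bins of the 2 sides were close in most genes. Many of them adjoined each other: 179 of 384 injured-side and 112 of 403 opposite-side bins lay within 320 µm of the midline column. Of 1914 genes compared, 25 (1.31%) were at least 2-fold higher on the injured side and 26 (1.36%) at least 2-fold lower, with a median log2 ratio of 0.03. At 28 days 222 of 3110 genes (7.14%) were higher and 89 (2.86%) lower, with a median of -0.03. The 28-day opposite side held 76581 UMIs in its Gfap-high bins against 531181 on the injured side, and 199 of the 222 higher genes had fewer than 10 UMIs on the opposite side. For 133 of the 222 the counting interval lay above equality, as it did for 25 of 25 at 3 days. Among genes with at least 200 UMIs, which depend less on depth, 5 of 175 were higher and 4 lower at 3 days, and 25 of 349 were higher and 5 lower at 28 days.

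General astrocyte genes were compared next. None of the 10 identity genes compared at each time was past 2-fold (against 1.31% of all genes higher and 1.36% lower at 3 days, 7.14% and 2.86% at 28 days), so the count lies near the shares over all genes. Their median log2 ratio was 0.16 at 3 days and 0.00 at 28 days. Among 14 transport and metabolism genes, which clear glutamate, buffer potassium and move water, none was past 2-fold at either time, and the medians were 0.36 and 0.12. Aldoc, a glycolytic enzyme enriched in astrocytes, stood at 4009 (injured) and 4006 (opposite) CPM at 3 days, and 28 days after CCI these levels were 3824 and 3346 CPM. Glul, which turns glutamate into glutamine, was at 793 against 422 CPM at 3 days (log2 ratio 0.90, interval 0.52 to 1.31) whereas the 28-day levels were 536 against 777 CPM (-0.55, -0.95 to -0.11). Slc1a2, the main glutamate transporter, was likewise at 2272 against 1559 CPM and then at 1980 against 2503 CPM. For both genes the ratio stood above 0 at 3 days and below 0 at 28 days, and the bands of the sides overlapped at each time.

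Serpina3n, a secreted protease inhibitor and a common marker of reactive astrocytes, gave the clearest difference in the pan-reactive list. At 28 days it stood at 1619 CPM on the injured side (bands 779 to 2549) and at 316 CPM on the opposite side (bands 172 to 546), a log2 ratio of 2.33 (interval 1.77 to 3.01) with no overlap between the bands. At 3 days it stood at 1893 CPM (bands 603 to 3381) and at 2090 CPM (bands 285 to 3180), which gives -0.14 (-0.34 to 0.06) on the log2 scale. The injured-side levels of the 2 sections were therefore near each other, whereas the opposite-side levels were not. S1pr3, a sphingosine phosphate receptor, was the other gene of the list past 2-fold at 28 days, at 123 against 52.7 CPM, but with 4 UMIs on the opposite side its interval ran from -0.20 to 3.15. Aspg, an asparaginase, was at 129 against 271 CPM at 3 days (log2 ratio -1.06, -1.78 to -0.38). In all, 5 of the 12 genes of this list were compared at each time, with 0 higher and 1 lower at 3 days and 2 higher and 0 lower at 28 days, beside 1.31% and 1.36% of all genes at 3 days and 7.14% and 2.86% at 28 days. The other 7 were under 50 UMIs.

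Vim, the second main intermediate filament of reactive astrocytes, stayed below the 2-fold line between the sides. It stood at 6178 against 4418 CPM at 3 days (log2 ratio 0.48, 0.36 to 0.61), and the 28-day levels were 1822 against 1120 CPM (0.69, 0.38 to 1.04). Both sides were higher in the 3-day section, where the Gfap threshold was higher too. Over the whole opposite side Vim was at 169.7 CPM at 3 days and 80.7 CPM at 28 days.

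**Figure D2:**
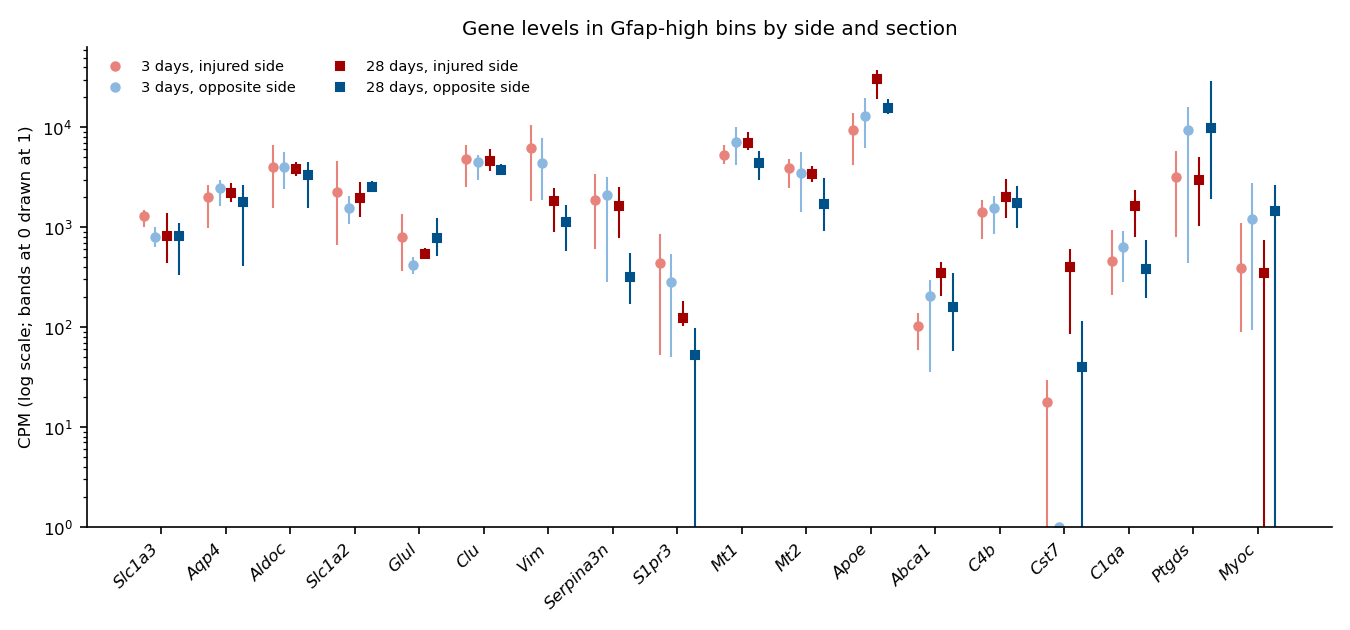
Level of 18 genes in Gfap-high bins as CPM on a log axis, for the injured side (red) and opposite side (blue) at 3 days (circles) and 28 days (squares); points are group values and vertical lines the range of the 5 bands of a section. Astrocyte genes on the left lie close together in the 4 groups, while the bands of Serpina3n, Mt1, Apoe and C1qa separate the sides at 28 days.

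The 3-day opposite side was itself uneven. Within 500 µm of the midline its 178 Gfap-high bins had 2826 CPM of Serpina3n and 6414 CPM of Vim. In its 125 Gfap-high bins more than 1000 µm from the midline the levels were 636 and 2689 CPM. The injured-side values at 3 days were 2169, 2384 and 1091 CPM of Serpina3n and 6143, 5574 and 6564 CPM of Vim at 0 to 500, 500 to 1000 and over 1000 µm. High Vim thus lay on both sides of the midline column, with lower levels farther out on the opposite side. The column is that of the rule, and the anatomical midline may lie some columns away. At 28 days the opposite side had 212, 214 and 394 CPM of Serpina3n over the same distances, without a high zone beside the midline. Set against the opposite-side bins more than 1000 µm out, all 384 injured-side bins at 3 days had log2 ratios of 1.55 for Serpina3n, 1.20 for Vim and 2.00 for S100a6, a calcium-binding protein (7 UMIs in these opposite-side bins). The call for these 3 genes at 3 days therefore depended on which opposite-side bins were used. The sides were at unlike distances in this setting. Beyond 1000 µm on both sides, Serpina3n was at 1091 against 636 CPM and Vim at 6564 against 2689 CPM. With bins within 500 µm of the midline left out on both sides, Vim was at 1.17 and Serpina3n at 0.06.

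**Figure D3:**
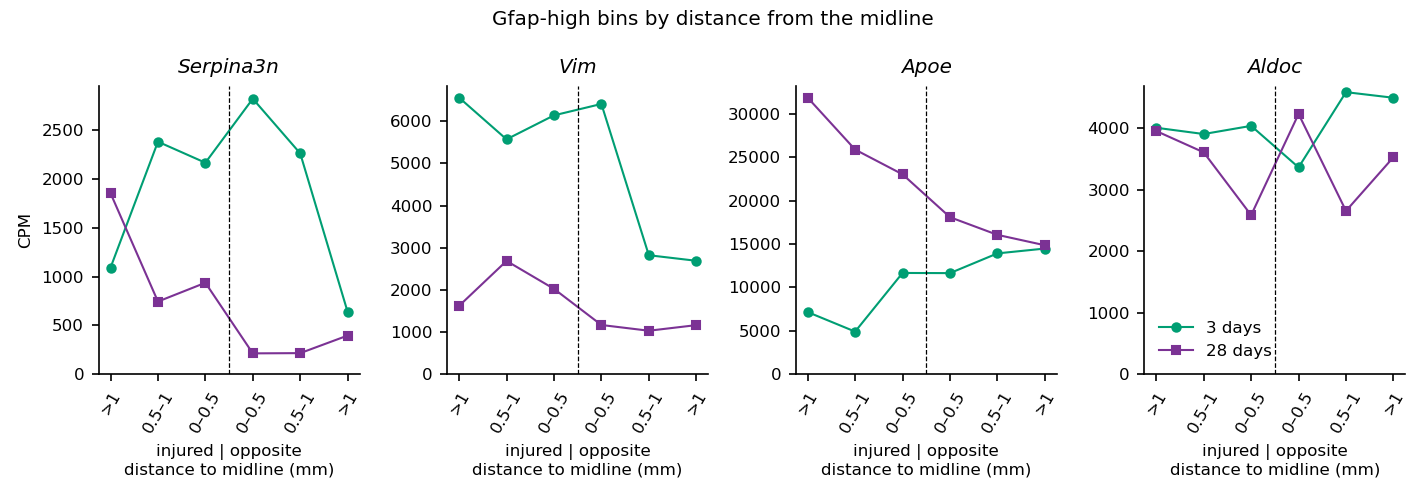
Level in CPM of Serpina3n, Vim, Apoe and Aldoc in Gfap-high bins by distance from the midline (dashed line) in mm, with the injured side to the left and the opposite side to the right; circles are 3 days and squares 28 days. Serpina3n and Vim were high on both sides of the midline at 3 days and fell beyond 1 mm on the opposite side, to 636 and 2689 CPM. Beyond 1 mm on the injured side Serpina3n was lower as well, whereas Vim was not.

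C3, the central complement component, was also concentrated by place. At 3 days it stood at 650 CPM on the injured side, but its bands ran from 0 to 1920 CPM. It was at 1112 CPM within 500 µm of the midline and at 15.6 CPM beyond 1000 µm. On the opposite side it fell from 739 to 123 CPM over the same distances. With the midline moved 20 columns (320 µm) toward the injured side, the log2 ratio of C3 over time, 28 days over 3 days, turned from -1.55 to 3.44. No direction is therefore given for C3 at 3 days or over time. At 28 days it was at 222 CPM (bands 159 to 262) against 92.2 CPM (7 UMIs, bands 0 to 148), a log2 ratio of 1.18 (0.18 to 2.61) with bands apart, which was -0.22 with a higher Gfap threshold that left 3 UMIs on the opposite side. C4b, which acts earlier in the same cascade, was at 1434 against 1548 CPM in the 3-day section and 2018 against 1765 CPM in the 28-day section, close between the sides at both times.

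Of the 3 metallothioneins, small proteins that bind zinc and copper, Mt2 alone was past 2-fold on the injured side at 28 days, beside 7.14% of all genes, and none was at 3 days, beside 1.31%. Mt2 stood at 3448 CPM (bands 2806 to 4106) against 1699 CPM (bands 910 to 3138), a log2 ratio of 1.02 (0.76 to 1.29). Mt1 was at 7005 CPM (bands 5873 to 8895) against 4413 CPM (bands 2985 to 5859), a log2 ratio of 0.66 (0.50 to 0.83), short of 2-fold although its bands did not overlap. Mt3 was at 2848 against 2226 CPM (0.35). The Mt2 ratio was 0.79, short of 2-fold, in injured-side bins more than 250 µm from a phagocyte-rich patch. At 3 days Mt2 had a ratio of 0.18 and Mt1 of -0.44. In the injured-side bins at 28 days, Mt2 ran from 3904 CPM within 100 µm of a phagocyte-rich patch to 935 CPM beyond 1000 µm.

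Lipid genes were compared in the same way. Apoe, the main lipid carrier that astrocytes secrete and that phagocytes also make, was at 9354 CPM on the injured side at 3 days (bands 4175 to 13976) and at 13025.5 CPM on the opposite side (bands 6243 to 19494), or -0.48 (-0.56 to -0.39) on the log2 scale. Its 28-day levels were 30403 CPM (bands 19199 to 37615) and 15624 CPM (bands 13733 to 18998), a log2 ratio of 0.96 (0.88 to 1.05) with bands apart. From 3 to 28 days the injured side was higher by 1.70 on the log2 scale (1.63 to 1.77) and the opposite side by 0.26 (0.16 to 0.36). Abca1, which loads cholesterol onto such carriers, followed the same order, at 102 against 206 CPM (-0.99 with the added 0.5 UMIs, just short of 2-fold) and then 350 against 158 CPM. Apod, another lipid carrier, did not: it was at 8111 CPM at 3 days and 3129 CPM at 28 days on the injured side, and at 7303 and 3293 CPM on the opposite side. Of 9 lipid genes compared between the sides, 0 were past 2-fold at 3 days, and 1 was higher (Abca1) and 1 lower (Lcat) at 28 days, where 7.14% of all genes were higher and 2.86% lower.

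Phagocyte genes moved with these differences at 28 days. Of 14 phagocyte genes compared there, 11 were at least 2-fold higher on the injured side (7.14% of all genes), and of 7 compared at 3 days none was. Spp1, a secreted phosphoprotein of activated phagocytes, was at 1051 against 92.2 CPM (log2 ratio 3.41, 2.46 to 4.83), with 7 UMIs on the opposite side. Cst7, an inhibitor of lysosomal proteases, was at 403 against 39.5 CPM (3.13, 1.78 to 5.64), with 3 UMIs on the opposite side. C1qa, a subunit of the first complement component that microglia make, was at 1643 CPM (bands 795 to 2355) against 382 CPM (bands 197 to 750), with a ratio of 2.08 (1.57 to 2.69). Fcrls, expressed by microglia, was at 416 against 79.0 CPM (2.28, 1.25 to 3.86), with bands apart and 6 UMIs on the opposite side. Resting microglia are marked by Tmem119 and P2ry12, which were sparse at 28 days, at 34.2 and 39.9 CPM against 39.5 CPM each (3 UMIs). Csf1r and Sall1, 2 other microglial genes, had ratios of -0.04 and 0.01. The 10 microglial genes summed to 2109 against 1146 CPM, and 2 of the 4 compared were past 2-fold. At 3 days C1qa was at 463 against 628 CPM and the summed phagocyte list at 1777 against 2025 CPM. Thus bins with fewer than 2 UMIs of Cd68, Lyz2 and Lgals3 in a block still held RNA of other phagocyte genes at 28 days, and the part of this RNA in the levels of Apoe, Serpina3n and Mt2 was not tested.

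The same genes were described by distance from the phagocyte-rich patches. Those patches were set by the 3 phagocyte genes of the rule, so the course of the phagocyte list is a description. At 28 days the phagocyte list summed to 8716 CPM in the 476 injured-side bins within 100 µm, 10202 CPM at 100 to 250 µm, 5560 CPM at 250 to 500 µm, 2613 CPM at 500 to 1000 µm and 1043 CPM in the 87 bins beyond 1000 µm. Serpina3n went from 2064 through 2119, 1227 and 603 to 71.9 CPM over the same steps. Apoe went from 36975 to 16867 CPM and Vim from 2374 to 1043 CPM. All 3 genes and the phagocyte list were thus lowest in the farthest bins. Aqp4 showed no such decline, with 2110 CPM nearest and 2122 CPM farthest, and neither did the identity list, with 8653 and 8308 CPM. In the 859 bins more than 250 µm from a patch, the log2 ratio to the opposite side was 1.71 for Serpina3n, 0.79 for Mt2, 0.56 for Apoe and 1.66 for C1qa.

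The 3-day section had another profile. Its lipid list rose with distance, from 15191 CPM within 100 µm to 28922 CPM beyond 1000 µm, and Apoe from 4938 to 15726 CPM. Vim was at 6573 CPM nearest and 8483 CPM farthest, and Serpina3n at 1537 and 2629 CPM. The phagocyte list was at 1177 CPM nearest and 1290 CPM farthest, with its highest value, 4767 CPM, in the 27 bins at 250 to 500 µm. The far bins at 3 days were few, with 29 beyond 1000 µm. The distances come from 1 section each and were not compared by a test.

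**Figure D4:**
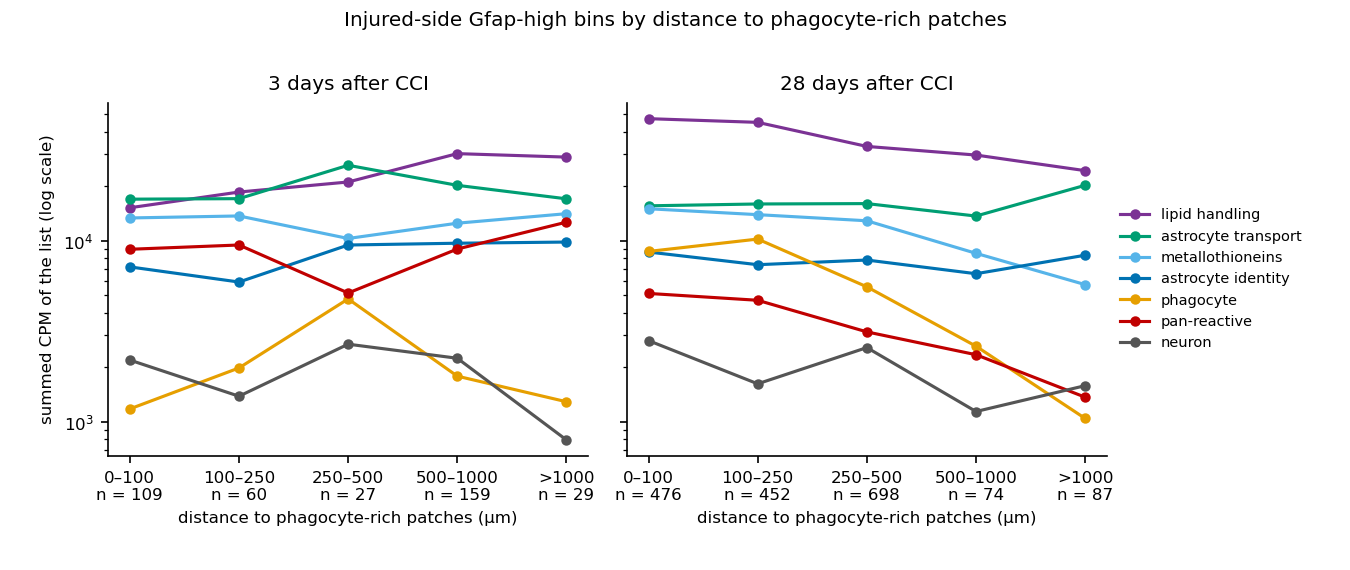
Summed CPM of 7 gene lists on a log axis in injured-side Gfap-high bins by distance to phagocyte-rich patches in µm, at 3 days (left) and 28 days (right), with the number of bins under each step. At 28 days the phagocyte, pan-reactive, metallothionein and lipid lists declined with distance, the pan-reactive list from 5111 to 1367 CPM, while the astrocyte identity list was at 8653 CPM nearest and 8308 CPM farthest.

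Interferon-response genes were the list with the largest sum on the injured side at 3 days relative to the opposite side among the reactive and immune lists. The 15 genes summed to 1439 against 736 CPM, a log2 ratio of 0.96 (0.67 to 1.27), and all 4 genes compared lay above 0, where the median over all genes was 0.03 and 1.31% of genes were past 2-fold. Ifit3, an antiviral effector induced by interferon, was past 2-fold, at 187 against 86.6 CPM (1.08, 0.25 to 2.04). At 28 days the sums were 1022 and 896 CPM, and 0 of 5 genes was past 2-fold, beside 7.14% of all genes. The 3-day band sums overlapped, from 839 to 2473 CPM for injured and 631 to 998 CPM for opposite bins. Lists of vessel cells were also higher in sum on the injured side at 3 days, at 1167 against 617 CPM for mural and 864 against 509 CPM for endothelial genes, and their part in the interferon sum was not tested.

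Of 1819 genes compared in both sections, 3 were at least 2-fold higher on the injured side in both and 11 lower in both, and none was past 2-fold in opposite directions. Of these 14 genes, Myoc, Ptgds and Tgm1 fall under the rule for named genes in both sections, and the other 11 were named after their values were seen. The 3 higher genes were Anxa6, a membrane-binding annexin (log2 ratios 1.57 and 1.83), Tgm1, a transglutaminase (1.33 and 1.48), and Add3, a subunit of the membrane skeleton protein adducin (1.26 and 1.19). They made up 14.3% of the 21 genes called higher at 3 days and 3.53% of the 85 called higher at 28 days in this set. Anxa6 and Tgm1 each had 2 UMIs on the opposite side at 28 days, and without the ventral surface the 28-day ratio of Tgm1 was 0.62. The 3-day ratio of Tgm1 was -0.46 in bins more than 250 µm from a phagocyte-rich patch. The 11 lower genes made up 57.9% of 19 at 3 days and 23.4% of 47 at 28 days.

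The 11 genes lower in both sections were Ptgds, Myoc, Ddn, Agt, Avp, Slc6a20a, Igf2, Adcy1, Alcam, Prkce and Chd3. Ptgds, a prostaglandin synthase of the meninges and oligodendrocytes, was at 3207 against 9306 CPM in the earlier section and 2968 against 9880 CPM in the later, with log2 ratios of -1.54 (-1.66 to -1.41) and -1.74 (-1.86 to -1.61). Myoc, a secreted protein of astrocytes under the pial surface, was at 392 against 1213 CPM and 351 against 1449 CPM (-1.62 and -2.05). Igf2 and Slc6a20a, both expressed in the meninges, had ratios of -1.28 and -1.35 at 3 days and -1.24 and -1.27 at 28 days. Agt, the angiotensin precursor made by astrocytes, had -2.20 and -1.52. Ddn, a protein of neuronal dendrites, had -1.52 and -1.69. The bands were wide, from 441 to 15829 CPM for Ptgds on the opposite side at 3 days, and overlapped for each of the 11 genes at both times. Of the opposite-side Gfap-high bins, 15.6% at 3 days and 17.04% at 28 days lay within 48 µm of a tissue edge, against 3.39% and 9.79% on the injured side. A separate edge setting retained bins for which at least 80% of the surrounding 11 by 11 positions held bins of at least 100 UMIs. It left 357 injured-side and 369 opposite-side bins at 3 days, and 1595 and 188 at 28 days. With bins at the edge left out in this way, all 11 genes were still below -1 at 3 days. At 28 days Ptgds was then at -0.80, Agt at -0.90 and Igf2 at 0.04, and Myoc at -2.65. Without the ventral surface, Ptgds at 28 days was at -0.16, Myoc at -0.87, Agt at 0.21 and Igf2 at 0.76, whereas Ddn was at -2.22 and Adcy1 at -2.06. At 3 days Ptgds was at -1.36 and Myoc at -1.64 without the ventral surface. Igf2 was then at -0.97, short of 2-fold, and Avp had 1 against 0 UMIs, a ratio of 1.11. The rest of the 11 genes stayed below -1 at 3 days. With bins at the edge left out, Slc6a20a, Alcam and Chd3 at 28 days were at -0.85, -0.72 and -0.73, and Avp held 3 against 1 UMIs. Without the ventral surface these 3 genes were at -0.49, -0.07 and -0.85, and Avp had 0 UMIs on both sides. The 28-day calls of Ptgds, Agt, Igf2, Slc6a20a, Alcam, Chd3 and Avp thus depended on bins at the edge and the ventral surface. That of Myoc depended on the ventral surface. The fibroblast list, which also holds genes of the meninges, was at 1394 against 1272 CPM in sum in the 3-day section, and 28 days after CCI it was at 268 against 527 CPM.

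**Figure D5:**
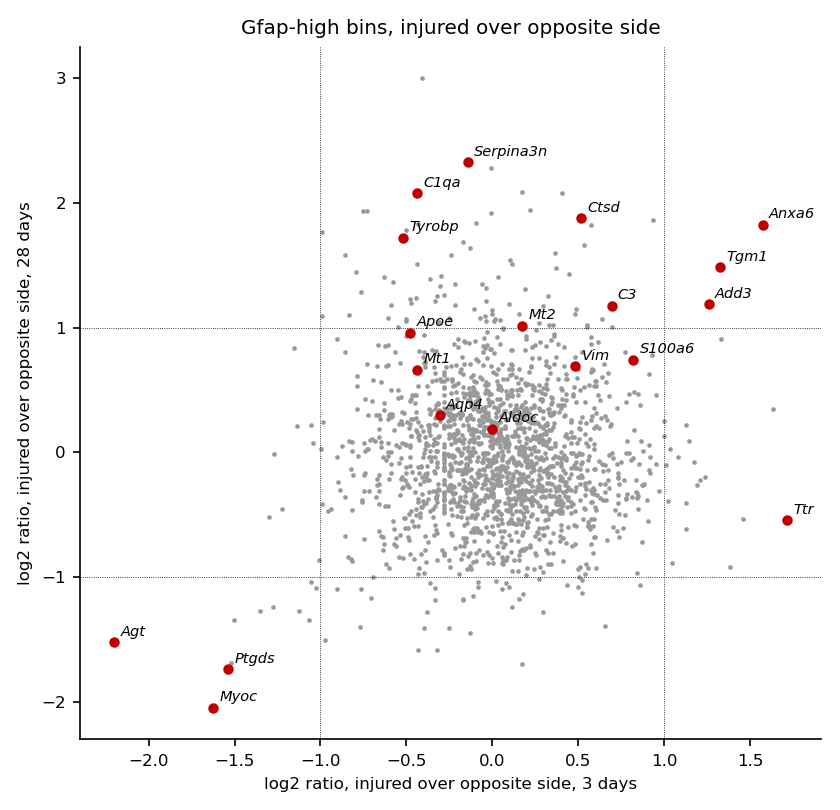
Log2 ratio of CPM, injured over opposite side Gfap-high bins, at 3 days (x axis) against 28 days (y axis) for 1819 genes compared in both sections; dotted lines mark 2-fold and red points named genes. Serpina3n, C1qa and Tyrobp lie past 2-fold at 28 days alone, Ttr at 3 days alone, and Ptgds, Myoc and Agt are lower in both.

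Among the 175 genes with at least 200 UMIs at 3 days, Ttr, S100a4, Trf and Aldh1a2 lay at the ends of the comparison. Ttr, a thyroxine carrier made in bulk by the choroid plexus, was at 1073 CPM on the injured side (bands 105 to 2796) against 325 CPM (log2 ratio 1.72, 1.31 to 2.16). It was at 1664 CPM within 500 µm of the midline and 421 CPM beyond 1000 µm, and its ratio turned to -2.17 with the midline moved 20 columns toward the injured side, so it has no settled direction. S100a4, a calcium-binding protein, was at 726 against 276 CPM (1.39, 0.93 to 1.88). Trf, the iron carrier made by oligodendrocytes, was at 2918 against 1278 CPM (1.19, 0.97 to 1.41). Aldh1a2, which makes retinoic acid in the meninges, was at 316 against 1137 CPM (-1.84, -2.26 to -1.45). The bands of the sides overlapped for all 4 genes.

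At 28 days the lower end of the comparison held Camk2a, a kinase of neurons whose mRNA lies in dendrites, at 422 against 1107 CPM (log2 ratio -1.40, -1.76 to -1.01), and Rassf2, at 304 CPM (bands 261 to 347) against 646 CPM (bands 492 to 918), with a ratio of -1.10 and bands apart. The 10 lowest of these 349 genes also held 4 mitochondrial transcripts, mt-Atp6 (-1.08), mt-Co3 (-0.91), mt-Nd1 (-0.89) and mt-Nd5 (-0.86). Of these transcripts mt-Atp6 was past 2-fold, at 1146 against 2411 CPM. The part of RNA quality in the 28-day ratios was not tested. With a higher Gfap threshold, which left 5 UMIs of Camk2a on the opposite side, its ratio was 0.42. Of 8 genes of the neuronal list compared, 4 were higher and 1 lower (7.14% and 2.86% of all genes), and the list summed to 2348 against 1976 CPM. Snap25, a synaptic vesicle fusion protein of this list, was at 872 against 369 CPM (1.22, 0.69 to 1.85). In bins rich in oligodendrocyte genes, however, Snap25 had a ratio of -0.12. All 10 oligodendrocyte genes were below 0 at 28 days, where the median over all genes was -0.03, and none was past 2-fold, beside 2.86% of all genes lower, with Mbp, the myelin basic protein, at 5566 against 9274 CPM. Bins rich in these genes made up 43.03% of the injured-side and 65.9% of the opposite-side Gfap-high bins at 28 days, and 30.5% and 29.3% at 3 days.

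From 3 to 28 days the injured-side Gfap-high bins had 200 of 4027 genes (4.97%) at least 2-fold higher at 28 days than at 3 days and 156 (3.87%) lower, and all bands lay apart for 2.21% of genes in the first direction and 1.49% in the second. Among the 506 genes with at least 200 UMIs, the 10 highest were Cst7, Spp1, Ctss, Ndrg4, Tyrobp, C1qb, C1qa, Abca1, Snhg11 and Apoe. Cst7 went from 17.8 to 403 CPM (log2 ratio 4.33, 3.12 to 6.39), Spp1 from 107 to 1051 CPM (3.27, 2.71 to 3.95), and Ctss, a lysosomal protease of microglia, from 151 to 720 CPM (2.23, 1.74 to 2.80). Of 14 phagocyte genes compared, 12 were at least 2-fold higher at 28 days, and Abca1 and Apoe were the 2 lipid genes past that line, each with bands apart. The phagocyte filter allowed fewer than 2 UMIs in blocks with a median of 4972 UMIs at 3 days and 2372 at 28 days. It was thus looser as a share of UMIs at 28 days, and its part in these values was not tested. The 10 lowest of the same 506 genes were S100a4, Ttr, Vim, Fabp7, C3, Apod, S100a6, Nbl1, Tubb2b and Id3. Of these, C3, Nbl1 and Id3 turned sign under other choices of bins. Vim fell by 1.76 on the log2 scale (1822 against 6178 CPM). Fabp7, a fatty acid binding protein of radial glia and young astrocytes, was at 196 against 624 CPM (-1.67, -2.05 to -1.29). S100a4 was at 177 CPM (bands 79.5 to 278) against 726 CPM (bands 367 to 1836), and S100a6 at 253 against 615 CPM, both with bands apart.

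In the opposite-side Gfap-high bins of the same sections, 54 of 931 genes (5.80%) were at least 2-fold higher at 28 days and 63 (6.77%) lower. Vim was lower by a similar amount, at -1.97 (-2.32 to -1.66), and Apod at -1.15 against -1.37 on the injured side. Serpina3n was at -2.70 (-3.38 to -2.13) on the opposite side and at -0.23 (-0.40 to -0.05) on the injured side. Fabp7 was at -0.52 (-1.30 to 0.15) on the opposite side. The pan-reactive list summed to 9136 CPM at 3 days and 4009 CPM at 28 days on the injured side, and to 7758 and 1871 CPM on the opposite side. The sum was thus lower in the 28-day section on both sides, and Vim alone made up 6178 of the 9136 CPM at 3 days and 1822 of the 4009 CPM at 28 days on the injured side. The Gfap threshold was also lower in the 28-day section, and its part in these sums was not tested. The ratio of Serpina3n over time on the injured side depended on place: it was -1.005 in bins more than 250 µm from a phagocyte-rich patch and 0.10 in bins more than 500 µm from the midline.

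Genes of the vessel wall and meninges were measured in these bins too. Dcn, a matrix proteoglycan of fibroblasts, was at 731 CPM at 3 days and 62.7 CPM at 28 days on the injured side (log2 ratio -3.53, -4.13 to -3.00) and at 449 and 132 CPM on the opposite side. Tagln, an actin-binding protein of smooth muscle, was at 325 against 103 CPM between the sides at 3 days (1.63, 0.92 to 2.47), and the 28-day levels were 91.2 against 65.9 CPM. Proliferation genes were near their floor: 8 such genes summed to 24 UMIs on the injured side at 3 days and 11 at 28 days, and to 15 and 0 UMIs on the opposite side. A count of 0 allows up to 3 UMIs, so no direction is given for them at this depth.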

How the data were processed

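The deposited counts were UMIs per gene and 16 µm bin, made by the authors with Space Ranger 4.0.1 on mm10 according to the submitters' processing notes and the file headers. Tissue was fixed, embedded in paraffin and read with probes, so a gene outside the probe set, such as Clec7a, has no value. The files held 120615873 UMIs at 3 days and 82422389 at 28 days over 19070 genes.

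Bins under 100 UMIs were dropped, which retained 119617 and 103316. UMIs were summed over the bins of a group and divided by its total without the 4 genes of the rule. Log2 ratios used a pseudocount of 0.5 UMIs. Named genes were the 10 highest and 10 lowest ratios among genes of at least 200 UMIs in each comparison, and the genes of 25 lists, of which some are not reported here. The members and lists were chosen with earlier results of these data known. The calculation was tested on simulated data. Sums and intervals were computed with scipy 1.17.1 and pandas 2.3.3 under Python 3.11.15, figures with matplotlib 3.10.9, and TMM factors, an alternative, with edgeR 4.0.16 in R 4.3.3. In all, 23 alternatives were run, 5 of them chosen after seeing the data. With 1 section per time there were no replicates, and no p-value was computed.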

Additional observations from a re-analysis of the deposited data

How the results depend on the processing

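With 1 section per time, no alternative measures the spread between mice, and the limits are depth, the midline and the choice of bins. The count of directions covered gene lists and the genes under the rule for named genes. Of 2110 such values at least 2-fold apart as reported, counted over 23 alternatives, 2088 kept their direction. Genes named after their values were seen, such as Agt, Igf2 and Avp, are outside this count. Alternatives that change only the minimum UMIs of a gene leave each ratio as it was, so they could not turn a direction. The share that kept its direction is therefore not a measure of stability for all reported genes. No paired analysis was possible because each group was 1 section. The cause of the changes below was not tested.

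Counts of genes at least 2-fold higher and lower moved as follows, in the order 3 days, 28 days and over time where all are given. These counts are not shares, because a setting that changes the bins of a group also changes how many genes reach 50 UMIs. They therefore cannot be set directly against the counts as reported. With a Gfap threshold set higher, at the strictest percentile tried, they were 14 and 8, 68 and 44, and 91 and 60. With no phagocyte filter, which gave 838 injured-side bins at 3 days and 5580 at 28 days, they were 120 and 78, 1162 and 1006, and 529 and 486. With genes of at least 20 UMIs they were 213 and 188, 773 and 498, and 564 and 460, and with at least 200 UMIs 5 and 4, 25 and 5, and 27 and 21, since these settings change how many genes are compared. In bins rich in oligodendrocyte genes they were 10 and 5, 26 and 16, and 46 and 34. At 28 days and over time they were 69 and 28, and 92 and 64, with 0 phagocyte UMIs in a block, 45 and 22, and 56 and 47, with a block of 5 by 5 bins, and 55 and 24, and 113 and 87, in bins more than 250 µm from phagocyte-rich patches. At 3 days they were 45 and 62 with a lower Gfap threshold, 60 and 95 with the midline 20 columns lower, 115 and 10 with UMIs per bin in place of CPM, and 52 and 45 with a phagocyte share below 400 CPM. The higher count at 3 days was 50 with the midline 20 columns higher and 50 with the opposite side taken beyond 1000 µm from the midline. UMIs per bin gave 22 and 2070 over time. The lower count at 28 days was 165 without the ventral surface and 137 with the opposite side beyond 1000 µm.

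Among the 2110 values counted above, these log2 ratios turned sign. At 3 days Tm4sf1 was at 0.49 with the higher threshold and 0.28 with the midline lower, Ttr at -2.17 with the midline lower, and Tgm1 at -0.46 beyond 250 µm. At 28 days C1qc was at -0.21, C3 at -0.22 and Camk2a at 0.42 with the higher threshold, and Snap25 at -0.12 in oligodendrocyte-rich bins. Over time C3 was at 0.32 with no phagocyte filter, 3.44 with the midline lower, 1.78 in oligodendrocyte-rich bins and 1.97 in bins more than 500 µm from the midline. Ctsz was at -0.0894 and Nbl1 at 0.52 with the larger block, and Nbl1 at 0.0047 with the midline lower. In oligodendrocyte-rich bins Camk2a was at 0.95, Itm2a at 1.20, Mfge8 at 0.98 and Serping1 at 1.28. In bins more than 500 µm from the midline Id3 was at 0.0401, Nbl1 at 0.0432 and Serping1 at 0.21. Outside that count, Avp at 3 days was at 1.11 without the ventral surface (1 against 0 UMIs). At 28 days Agt was at 0.21 and Igf2 at 0.76 without the ventral surface, and Igf2 at 0.04 with bins at the edge left out.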
